A study of Mus musculus with 12 samples.

Results

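The contactin genes Cntn1 to Cntn6 and the contactin-associated protein genes Cntnap1 to Cntnap4 were examined in the striatum of 12 mice aged 8 weeks. These 10 genes were listed by symbol, without the Cntnap5 genes, and each was read from a probe set that carried its symbol alone in the platform table. All 10 of 10 were found among the 19248 genes measured. Cntn6 was picked out from the others by 1 set of values, its rise with the HD transgene in mice with normal p62. That comparison is therefore given as a description, with no test, for every member. The same holds for Cntn6 in any comparison that shares those mice.

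The mice came from a cross of a Huntington's disease (HD) model with p62 knockouts, made to ask how loss of p62 alters the striatal transcriptome of the model. There were 4 groups of 3 mice: non-transgenic mice with normal p62 (NT_p62WT), HD transgenic mice with normal p62 (HD_p62WT), non-transgenic p62 knockouts (NT_p62KO) and HD transgenic p62 knockouts (HD_p62KO). The HD line, its promoter, the knockout allele and the background strain are named in no source used here. Each Affymetrix whole-transcript array gave 1 log2 value per probe set, so a difference of 1 is a 2-fold change, and the number of arrays limits the precision.

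Contactins are immunoglobulin-type adhesion molecules held on the outside of the neuronal membrane by a lipid anchor. Contactin-associated proteins are membrane-spanning relatives of the neurexins. Some members pair on myelinated axons, where Cntn1 with Cntnap1 forms the junction with the myelin loops beside the node of Ranvier and Cntn2 with Cntnap2 gathers potassium channels next to it. Cntn6 and its closest relatives Cntn3, Cntn4 and Cntn5 are best known from developing axons and synapses.

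Sqstm1, which encodes p62, was low in the 6 mice labelled as knockouts, at 8.44 to 9.13 against 11.19 to 11.75 in the other 6. Among the knockouts it rose by 0.54 ± 0.11 (SE) with the HD transgene (limma, adjusted p = 0.0076). The 14 measured markers of medium spiny neurons, the main striatal cell type, had a median at the 97.9th percentile of mean brightness over all genes, the lowest being Pdyn at the 62.8th. Array medians ran from 7.79 to 7.83. The standard deviation (SD) of the log2 values over all genes, here called the array spread, was 1.66 to 1.73 in HD_p62KO, 1.64 to 1.71 in HD_p62WT, 1.58 to 1.67 in NT_p62KO and 1.65 to 1.66 in NT_p62WT. NT_p62KO replicate 3 had the smallest spread.

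Promoter windows of 3 members are shown because these genes had the largest rise (Cntn6) and shared a fall (Cntnap3 and Cntn5) in HD mice of both p62 genotypes. Cntnap1 also fell in both, by 0.52 with p62 and 0.58 without it, but had no window. They are RefSeq windows of build GRCm38.p6, from 250 bases before to 50 bases after the annotated start, written 5′ to 3′ on the gene's strand. The Cntn6 window lies at chr6:104492794-104493093 on the plus strand, that of Cntnap3 at chr13:64903839-64904138 on the minus strand and that of Cntn5 at chr9:10904726-10905025 on the minus strand. Of the 2 windows listed for Cntn5, which overlap, 1 is shown. Capitals mark a match to a motif searched on both strands.
Cntn6: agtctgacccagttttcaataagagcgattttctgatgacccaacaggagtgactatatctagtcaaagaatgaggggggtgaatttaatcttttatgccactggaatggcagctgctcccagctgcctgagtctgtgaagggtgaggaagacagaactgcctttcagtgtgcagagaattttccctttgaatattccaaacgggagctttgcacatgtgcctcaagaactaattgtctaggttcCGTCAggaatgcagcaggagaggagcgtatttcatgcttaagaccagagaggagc
Cntnap3: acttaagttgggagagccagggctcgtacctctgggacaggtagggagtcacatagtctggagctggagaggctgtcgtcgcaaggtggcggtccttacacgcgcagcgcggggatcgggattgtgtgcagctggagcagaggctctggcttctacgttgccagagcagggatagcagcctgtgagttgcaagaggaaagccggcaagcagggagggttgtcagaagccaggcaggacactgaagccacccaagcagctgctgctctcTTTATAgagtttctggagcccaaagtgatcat
Cntn5: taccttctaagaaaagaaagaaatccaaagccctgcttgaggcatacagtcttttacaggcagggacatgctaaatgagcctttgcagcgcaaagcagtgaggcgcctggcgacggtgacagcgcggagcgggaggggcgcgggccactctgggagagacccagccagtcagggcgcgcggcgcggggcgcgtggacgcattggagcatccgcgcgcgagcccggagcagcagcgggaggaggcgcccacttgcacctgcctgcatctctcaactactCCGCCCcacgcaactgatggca

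The motifs were the GC box GGGCGG, the TATA box TATAAA, the cAMP response element TGACGTCA and its core TGACG, the E-box CACGTG and the EGR site GCGGGGGCG. The cAMP response element contains its core, so that their matches can overlap. In the Cntn6 window the capitals are 1 core of the cAMP response element, in the Cntnap3 window 1 TATA box sequence that lies 19 bases after the start on the opposite strand, and in the Cntn5 window 1 GC box. Of all 32851 promoter windows of this length, 20.81% held the core, 13.62% the TATA box sequence and 35.66% the GC box. The Cntnap3 and Cntn5 windows, whose genes both fell in HD mice, shared no searched motif. The Cntn5 window was 63.7% G and C with 26 CpG dinucleotides, that of Cntnap3 58.0% with 11 and that of Cntn6 46.3% with 4, against medians of 52.7% and 7 over all windows.

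Cntn6, which encodes an adhesion molecule of the subgroup known from developing axons and synapses, was higher in HD than in non-transgenic striatum in both p62 genotypes. Its probe set 10540333 read 3.72, 4.64 and 3.61 in the NT_p62WT mice and 5.92, 5.33 and 6.25 in the HD_p62WT mice. These groups did not overlap. The difference, which picked Cntn6 out, was 1.84 ± 0.41 (SE, n = 3 per group) on the log2 scale and the highest of all 19248 genes. In mice without p62, none of which entered that choice, Cntn6 read 5.15, 5.70 and 3.80 in NT_p62KO and 6.68, 6.24 and 6.54 in HD_p62KO. Again every HD mouse lay above every non-transgenic mouse. The rise of Cntn6 was 1.60 ± 0.41 (SE, n = 3 per group) on the log2 scale (adjusted p from limma = 0.0207). No detection call was used here, so whether the low values lay above background is not known and no fold is given.

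The group means of Cntn6 ran from 3.99 ± 0.57 (SD, n = 3) in NT_p62WT through 4.88 ± 0.98 in NT_p62KO and 5.83 ± 0.47 in HD_p62WT to 6.49 ± 0.23 in HD_p62KO. Each group overlapped the next one in this order. The p62 differences, which share mice with the choice of Cntn6, were 0.89 ± 0.41 (SE) without the transgene and 0.65 ± 0.41 with it. The HD difference without p62 minus that with p62 was -0.24 ± 0.59 (SE).

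Cntn6 was the dimmest member and the most variable one. Its mean of 5.30 lay at the 7.48th percentile of all genes. Its SD within groups, 0.62, lay at the 99.8th percentile, against a median of 0.16 for the 1345 genes with a mean within 0.5 of it. The SDs of the other 9 members ran from 0.072 for Cntn2 to 0.17 for Cntn4. NT_p62KO replicate 3, at 3.80, stood well below the 5.15 and 5.70 of the other mice of its group.

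Cntn6 tended to be high on the arrays of wide spread and low on those of narrow spread, with exceptions. Its highest value, 6.68 in HD_p62KO replicate 1, came with a spread of 1.6606, while NT_p62WT replicate 2 read 4.64 at 1.6623. Over the 12 arrays the correlation of Cntn6 with array spread was 0.736, and 0.667 for deviations from the group means. These are descriptions, and spread also differed with HD status. When the array spread was added to the fit, the HD difference without p62 was 0.84 ± 0.43 (SE; limma, adjusted p = 0.304). Without NT_p62KO replicate 3 it was 1.06 ± 0.32 (adjusted p = 0.0618), without HD_p62KO replicate 2 or 3 it was 1.73 and 1.57 (adjusted p = 0.0531 and 0.0616), and without the 3 arrays of smallest spread 1.06 (adjusted p = 0.0531). The part of array spread in the Cntn6 difference was not tested beyond these values.

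**Figure D1:**
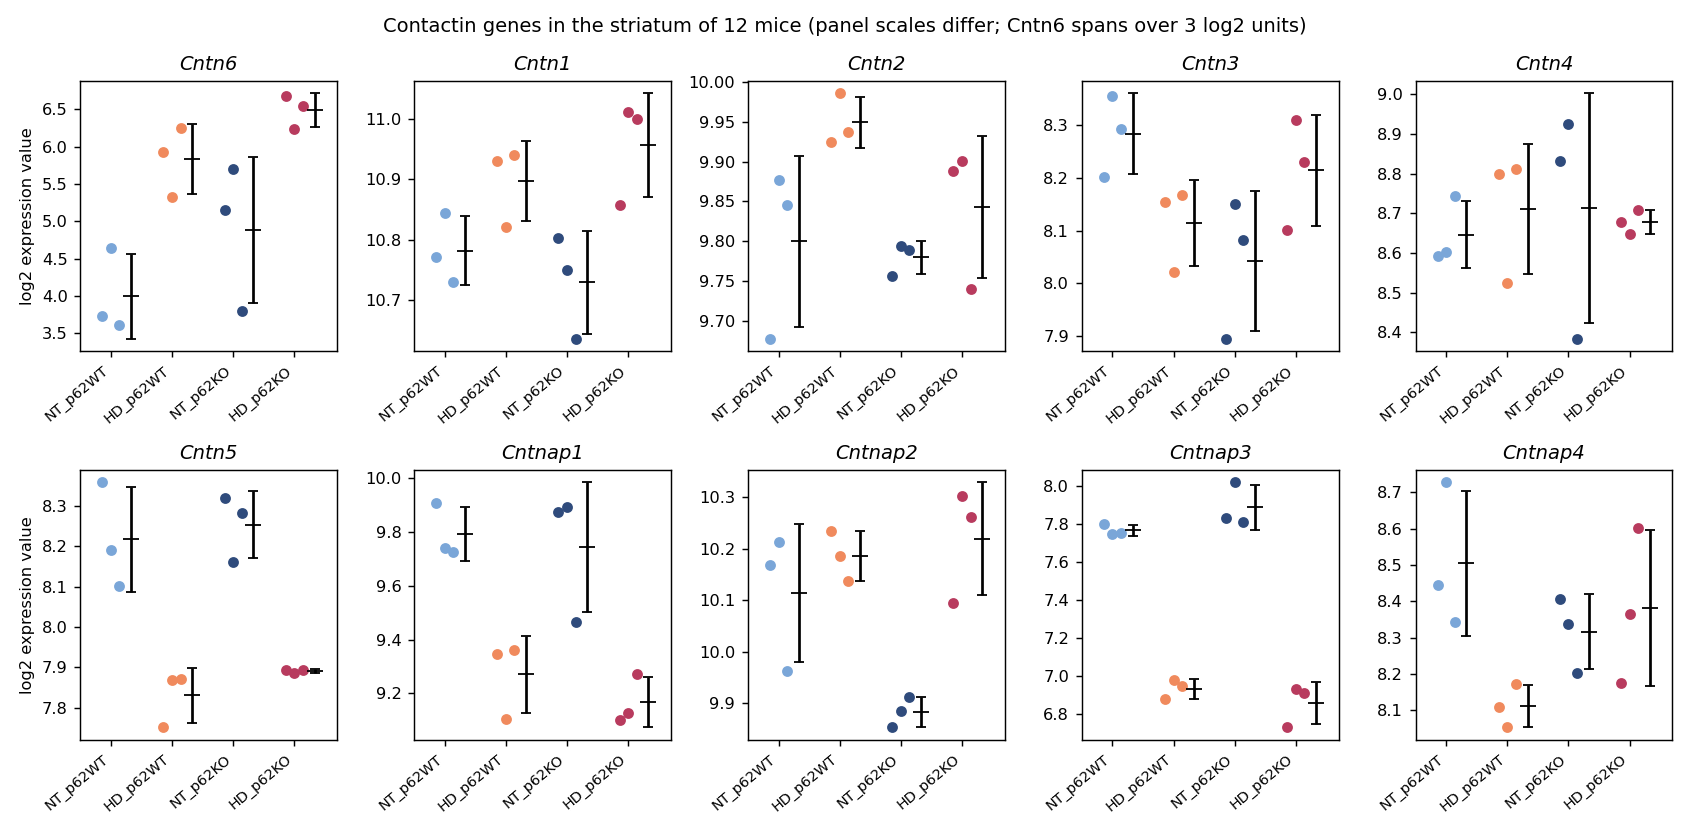
Log2 expression value of each member (vertical axis, with its own scale in each panel) in every mouse of the 4 groups (points), with the group mean and SD at the right of the points. Cntn6 runs from 3.61 to 6.68, while Cntnap3 falls into 2 narrow bands, 7.75 to 8.02 in non-transgenic and 6.73 to 6.98 in HD mice.

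The genes whose values over the 12 mice were most like those of Cntn6 were Clcc1, Dpm1, Mnat1, Faf1 and Ssr1, with Pearson correlations of 0.939, 0.938, 0.937, 0.933 and 0.932. The most opposed were Cblc, Lif and Fam162b, at -0.955, -0.949 and -0.948. The deviations from group means, which are part of the values that chose these genes, correlated at 0.74 to 0.932 for the former and at -0.911 to -0.879 for the latter. Among members, Cntn1 was most like Cntn6 (0.786; 0.614 within groups). Cntnap1 correlated at -0.624 over all mice but at 0.708 within groups. Within groups, array spread itself correlated with Cntn1 at 0.903, with Cntnap1 at 0.795 and with Cntn6 at 0.667. The part of array spread in these likenesses was not tested.

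Of the 3 measured genes on either side of Cntn6 on chromosome 6, Chl1 alone passed for the HD effect without p62. Of all genes 21.7% passed in the same comparison. Chl1, a related adhesion molecule on one side, differed by 0.14 ± 0.14 (SE) with p62 and rose by 0.51 ± 0.14 without p62 (limma, adjusted p = 0.026). Cntn4 on the other side differed by 0.066 ± 0.13 and -0.034 ± 0.13 (adjusted p = 0.853 without p62). Trnt1, a tRNA-processing enzyme farther along, differed by 0.36 ± 0.15 with p62 and by 0.42 ± 0.15 without it, the same direction as Cntn6, but did not pass (adjusted p = 0.068 without p62). Cntn3, a predicted gene and Il5ra did not pass either (adjusted p = 0.157, 0.181 and 0.975).

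Cntn5, a close relative of Cntn6, went the other way. It read 8.36, 8.19 and 8.10 in NT_p62WT and 7.75, 7.87 and 7.87 in HD_p62WT, a difference of -0.39 ± 0.077 (SE, n = 3 per group). Without p62 it read 8.32, 8.16 and 8.28 in NT_p62KO and 7.89, 7.89 and 7.89 in HD_p62KO. All 6 HD mice lay below all 6 non-transgenic mice. Without p62 Cntn5 fell by 0.36 (SE 0.077; limma, adjusted p = 0.01). Fitting the array spread as well gave an adjusted p of 0.0825.

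Cntn3 and Cntn4, the remaining relatives of Cntn6, did not pass in the tests as reported. Cntn3 differed by -0.17 ± 0.086 (SE) with p62 and by 0.17 ± 0.086 without it (limma, adjusted p = 0.157). With array weights the latter was 0.27 ± 0.076 and passed (adjusted p = 0.0191), the 1 pass of Cntn3 among 22 alternatives. Its lowest group was NT_p62KO, at 8.04 ± 0.13 (SD, n = 3), and its highest NT_p62WT, at 8.28 ± 0.077. Cntn4 ran from 8.38 to 8.92 over all mice, with both ends in NT_p62KO, and its HD differences were 0.066 and -0.034.

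Cntn1, the contactin of the junction between axon and myelin, was the brightest member. It read 10.80, 10.75 and 10.64 in NT_p62KO and 10.86, 11.01 and 11.00 in HD_p62KO, with no overlap. It rose by 0.23 ± 0.073 (SE; limma, adjusted p = 0.0443) without p62, and its description with p62 was 0.12 ± 0.073. The call without p62 was not kept under 15 of 22 alternatives (adjusted p from 0.0214 to 0.398 over all 22). Its correlation with array spread was 0.931, the highest of the members. Cntn2, its counterpart beside the potassium channels, differed by 0.15 ± 0.072 (SE) with p62 and by 0.063 ± 0.072 without it (adjusted p = 0.523).

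Cntnap3, a contactin-associated protein of the nervous system, had the largest fall among the members. Its 6 probe sets carried identical values on all 12 arrays and were counted as 1 measurement. The related gene Cntnap3b was not among the genes measured, and whether these probe sets also read it was not tested. Cntnap3 read 7.80, 7.75 and 7.76 in NT_p62WT and 6.88, 6.98 and 6.95 in HD_p62WT, a difference of -0.83 ± 0.078 (SE, n = 3 per group). In mice without p62 it read 7.84, 8.02 and 7.81 without the transgene and 6.73, 6.93 and 6.91 with it. The gap between the highest HD mouse and the lowest non-transgenic mouse was wider than the range within either. Without p62 Cntnap3 fell by 1.03 (SE 0.078), or 2.04-fold (adjusted p from limma = 3.23e-05), the 25th lowest difference of all genes. The call was kept under all 22 alternatives, with differences from -1.11 to -0.96.

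Cntnap1, the partner of Cntn1, fell as well. It read 9.91, 9.74 and 9.73 in NT_p62WT and 9.35, 9.11 and 9.36 in HD_p62WT, a difference of -0.52 ± 0.12 (SE). Without p62 it read 9.87, 9.89 and 9.47 in NT_p62KO and 9.10, 9.13 and 9.27 in HD_p62KO. All 6 HD mice were below all 6 non-transgenic mice, NT_p62KO replicate 3 being the nearest to them. It fell by 0.58 (SE 0.12), or 1.49-fold, without p62 (adjusted p from limma = 0.00805), and the call was kept under all 22 alternatives (-0.81 to -0.50).

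Cntnap2, the partner of Cntn2, read 10.17, 10.21 and 9.96 in NT_p62WT, 10.23, 10.19 and 10.14 in HD_p62WT, 9.85, 9.89 and 9.91 in NT_p62KO and 10.09, 10.30 and 10.26 in HD_p62KO. NT_p62KO was the low group, below every other mouse. Without p62 Cntnap2 rose by 0.34 ± 0.081 (SE; limma, adjusted p = 0.0157), while with p62 the difference was 0.072 ± 0.081. The difference between these, 0.26 ± 0.11 (SE), did not pass (adjusted p = 0.991). The rise without p62 had adjusted p = 0.127 when the array spread was fitted too, 0.0554 without the 3 arrays of smallest spread, and 0.0686 and 0.0574 without HD_p62KO replicate 2 and 3.

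Cntnap4, known from inhibitory interneurons, read 8.44, 8.73 and 8.34 in NT_p62WT and 8.11, 8.05 and 8.17 in HD_p62WT, a difference of -0.39 ± 0.12 (SE). These groups did not overlap. Without p62 the groups overlapped, at 8.20 to 8.41 and 8.18 to 8.60, and the difference was 0.065 ± 0.12 (limma, adjusted p = 0.694). The 2 HD differences of Cntnap4 were 0.46 ± 0.17 (SE) apart, which did not pass (adjusted p = 0.991). The 9 measured interneuron markers, as a mean of log2 deviations from each marker's mean over the 12 mice, were at 0.11 to 0.48 in NT_p62WT, -0.39 to -0.26 in HD_p62WT, 0.11 to 0.20 in NT_p62KO and -0.23 to -0.0076 in HD_p62KO. Their part in the Cntnap4 values was not tested. In bulk tissue, fewer cells of a type and less RNA per cell cannot be told apart.

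Without p62, 6 of 10 members passed for the HD effect, 3 higher (Cntn1, Cntn6 and Cntnap2) and 3 lower (Cntn5, Cntnap1 and Cntnap3). Of all genes 21.7% passed, 13.3% higher and 8.34% lower. The count of members was 2 with the array spread in the fit, where 4.38% of all genes passed. It was 3 without the 3 arrays of smallest spread (9.3% of all genes), without HD_p62KO replicate 2 (6.61%) and without HD_p62KO replicate 3 (9.33%). The groups did not overlap for 6 of 10 members and for 39.4% of all genes. The median difference of the members was 0.064 and that of all genes -0.02. With p62, where Cntn6 was picked out, 4 of 10 members were past the same threshold against 7.1% of all genes, and 7 of 10 did not overlap against 33.1%, from which nothing is read. The 4 became 1 without replicate 1 of HD_p62WT (2.19% of all genes) or of NT_p62WT (2.29%). They became 2 without replicate 3 of HD_p62WT (2.07%) or of NT_p62WT (2.29%). The 2 HD effects rest on different mice, and 7 of 10 members had the same sign in both, against 80.85% of all genes. The exceptions were Cntn3, Cntn4 and Cntnap4.

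**Figure D2:**
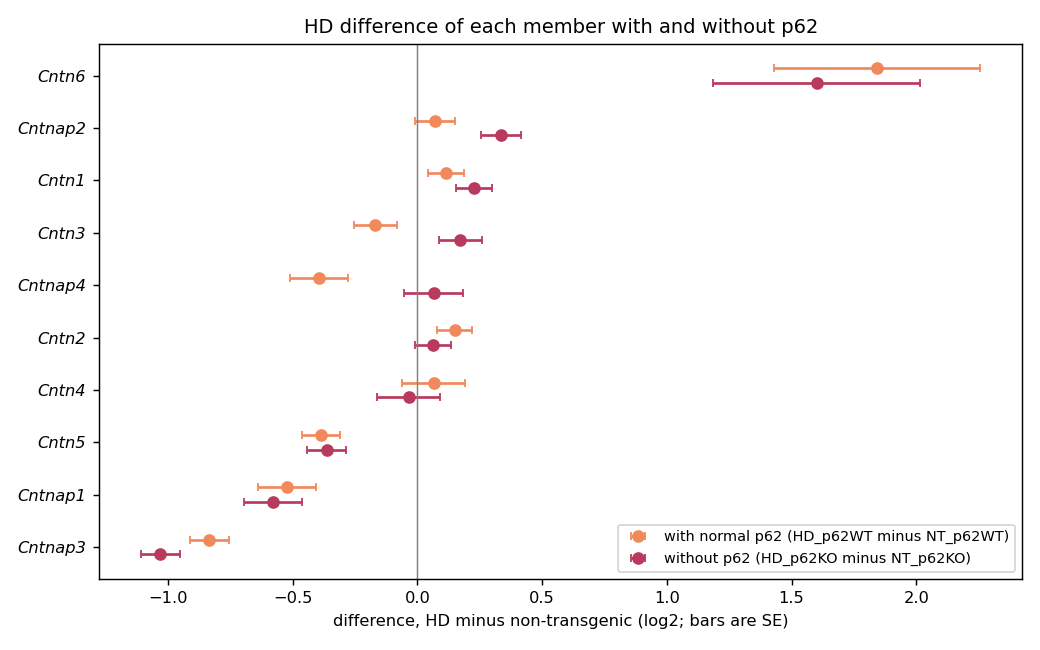
HD minus non-transgenic difference of each member on the log2 scale (horizontal axis, bars are SE, n = 3 mice per group) with normal p62 and without p62. Cntn6 lies apart at 1.84 and 1.60, Cntnap3 is lowest at -0.83 and -1.03, and Cntn3, Cntn4 and Cntnap4 change sign.

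Cntn6 was also set against the other members mouse by mouse. Each member was taken relative to its own NT_p62WT mean, which for Cntn6 helped to pick it out, so these values are a description. Cntn6 was higher by 1.34 to 2.26 in HD_p62WT and by 2.24 to 2.69 in HD_p62KO. Its SD within groups was 0.62, against 0.072 to 0.17 for the other members. Over the other 9 members, the deviations in HD mice ran from -1.04, for Cntnap3, to 0.23. In NT_p62KO, Cntn6 was at 1.16, 1.71 and -0.19, whereas the other members lay between -0.39 and 0.28.

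**Figure D3:**
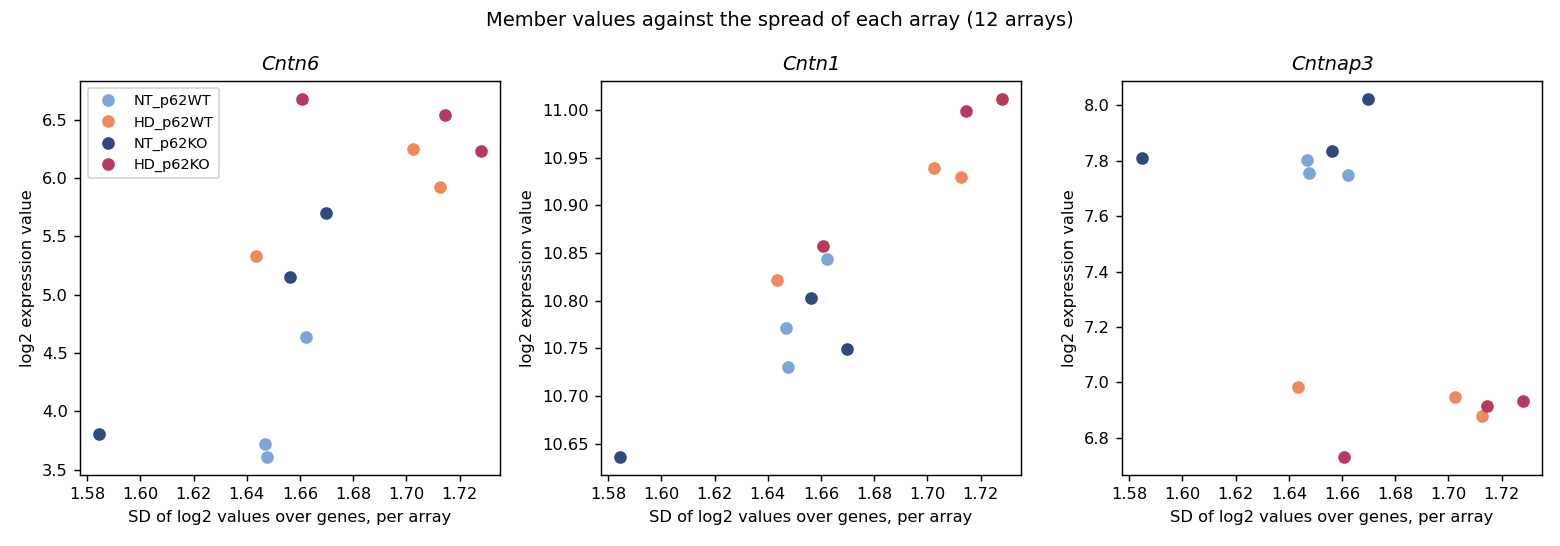
Log2 value of Cntn6, Cntn1 and Cntnap3 (vertical axes) against the SD of log2 values over all genes on the same array (horizontal axis), 1 point per mouse, coloured by group. Cntn6 and Cntn1 run upward with the spread (correlations of 0.736 and 0.931), while Cntnap3 splits by HD status at every spread.

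Loss of p62 was not accompanied by a called change in any member tested. In non-transgenic mice 0 of 9 tested members passed (limma), against 0.0052% of all genes, the 1 gene being Sqstm1 itself. An unadjusted p below 0.05 was found for 2 of 10 members and for 639 of 19248 genes. The nearest were Cntnap2, at -0.23 ± 0.081 (SE), and Cntn3, at -0.24 ± 0.086 (adjusted p = 1 for both). Groups did not overlap for 3 of 10 members and 7.87% of all genes. In HD mice 0 of 9 passed against 0.0052%, again with Sqstm1 alone. Cntnap4 had the 1 unadjusted p below 0.05 among members (0.27 ± 0.12, adjusted p = 1), against 555 of 19248 genes. Here 3 of 10 members and 7.38% of all genes did not overlap. For the difference between the HD effects 0 of 9 members and 0% of all genes passed, while 3 members and 665 genes had an unadjusted p below 0.05. The 3 were Cntnap4, Cntnap2 and Cntn3 (0.34 ± 0.12 SE). All 9 measured markers of choroid plexus were higher in p62 knockouts, without and with the transgene, though 0 passed. Their mean log2 deviation was -0.64 to -0.33 in NT_p62WT and 0.31 to 0.57 in NT_p62KO. In HD mice it overlapped, at -0.72 to 0.44 in HD_p62WT and -0.69 to 1.19 in HD_p62KO. The part of dissection in the p62 differences was not tested.

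Of 15 known binding partners of contactins, all measured, 2 rose and 1 fell with the HD transgene without p62, where 13.3% of all genes rose and 8.34% fell, and their median difference was 0.056 against -0.02 for all genes. Chl1, a cell adhesion molecule that binds Cntn6, rose as given above, from 8.88, 9.03 and 8.61 in NT_p62KO to 9.18, 9.41 and 9.48 in HD_p62KO. Ptpra, a receptor phosphatase that works with Cntn6 and Chl1, rose by 0.29 ± 0.071 (SE; limma, adjusted p = 0.0168) and differed by 0.17 ± 0.071 with p62. Ncan, the matrix proteoglycan neurocan that binds contactins, fell by 0.44 (SE 0.061; adjusted p = 0.00134), and its difference with p62 was -0.33 ± 0.061. App, the brightest partner that did not pass, differed by 0.11 ± 0.059 (adjusted p = 0.178). Ptprg, the receptor phosphatase bound by Cntn3 to Cntn6, differed by 0.053 ± 0.085 (adjusted p = 0.659).

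Among genes of the node of Ranvier and its flanking domains, 5 of 27 measured fell and 0 rose without p62, with a median of -0.071 (all genes: 8.34% fell, 13.3% rose, median -0.02). They were the potassium channel subunits Kcnab1 (-0.52 ± 0.085 SE; limma, adjusted p = 0.00337), Kcna4 (-0.36 ± 0.095; adjusted p = 0.0221) and Kcnq3 (-0.33 ± 0.077; adjusted p = 0.0146), and the scaffolds Dlg2 (-0.38 ± 0.071; adjusted p = 0.00598) and Dlg4 (-0.33 ± 0.068; adjusted p = 0.00932). Kcna1 and Kcna2, the channels gathered by Cntnap2 and Cntn2, differed by -0.20 ± 0.075 and -0.13 ± 0.06 (adjusted p = 0.0711 and 0.132). Sptbn1, a spectrin of the membrane skeleton and the brightest that did not pass, differed by -0.0001 ± 0.066 (adjusted p = 0.999). Nfasc, the glial partner of the Cntn1 and Cntnap1 pair, differed by 0.067 ± 0.068 (adjusted p = 0.474). The 13 measured markers of mature oligodendrocytes, the myelin-forming cells, lay at -0.031 to 0.11 in NT_p62KO and -0.17 to 0.048 in HD_p62KO, where 5 fell and 0 rose. Those of medium spiny neurons lay at 0.25 to 0.45 and -0.38 to -0.32, where 13 of 14 fell. Of 10 astrocyte markers 2 fell, and their mean lay at 0.03 to 0.072 in NT_p62KO and -0.11 to -0.012 in HD_p62KO. Of 10 measured markers of cortical excitatory neurons 1 fell, and their mean lay at -0.29 to 0.51 and -0.40 to 0.17. Of 9 measured markers of thalamic, septal and pallidal neurons 1 fell, and their mean lay at -0.30 to 0.53 and 0.074 to 0.11. The part of these cell types in the values of Cntn6, Cntnap1, Cntnap3 and the node genes was not tested.

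**Figure D4:**
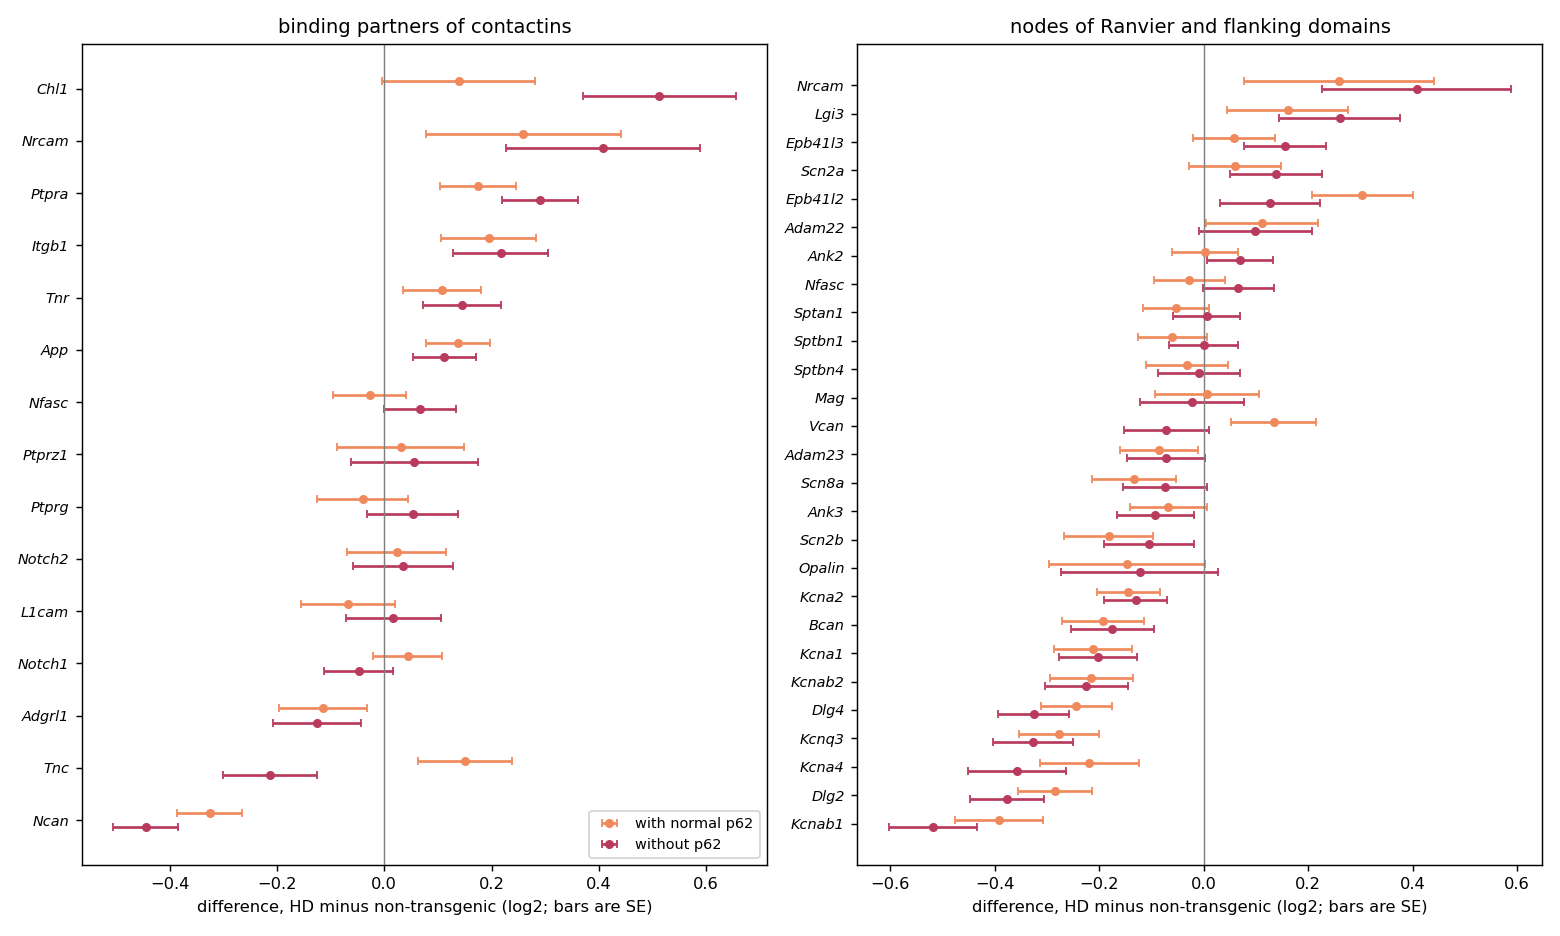
HD minus non-transgenic difference (log2, horizontal axis, bars are SE, n = 3 mice per group) of 15 binding partners of contactins and 27 genes of the node of Ranvier and its flanks, with normal p62 and without p62. Ncan and Kcnab1 are lowest without p62, at -0.44 and -0.52, and Chl1 is the highest partner, at 0.51.

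**Figure D5:**
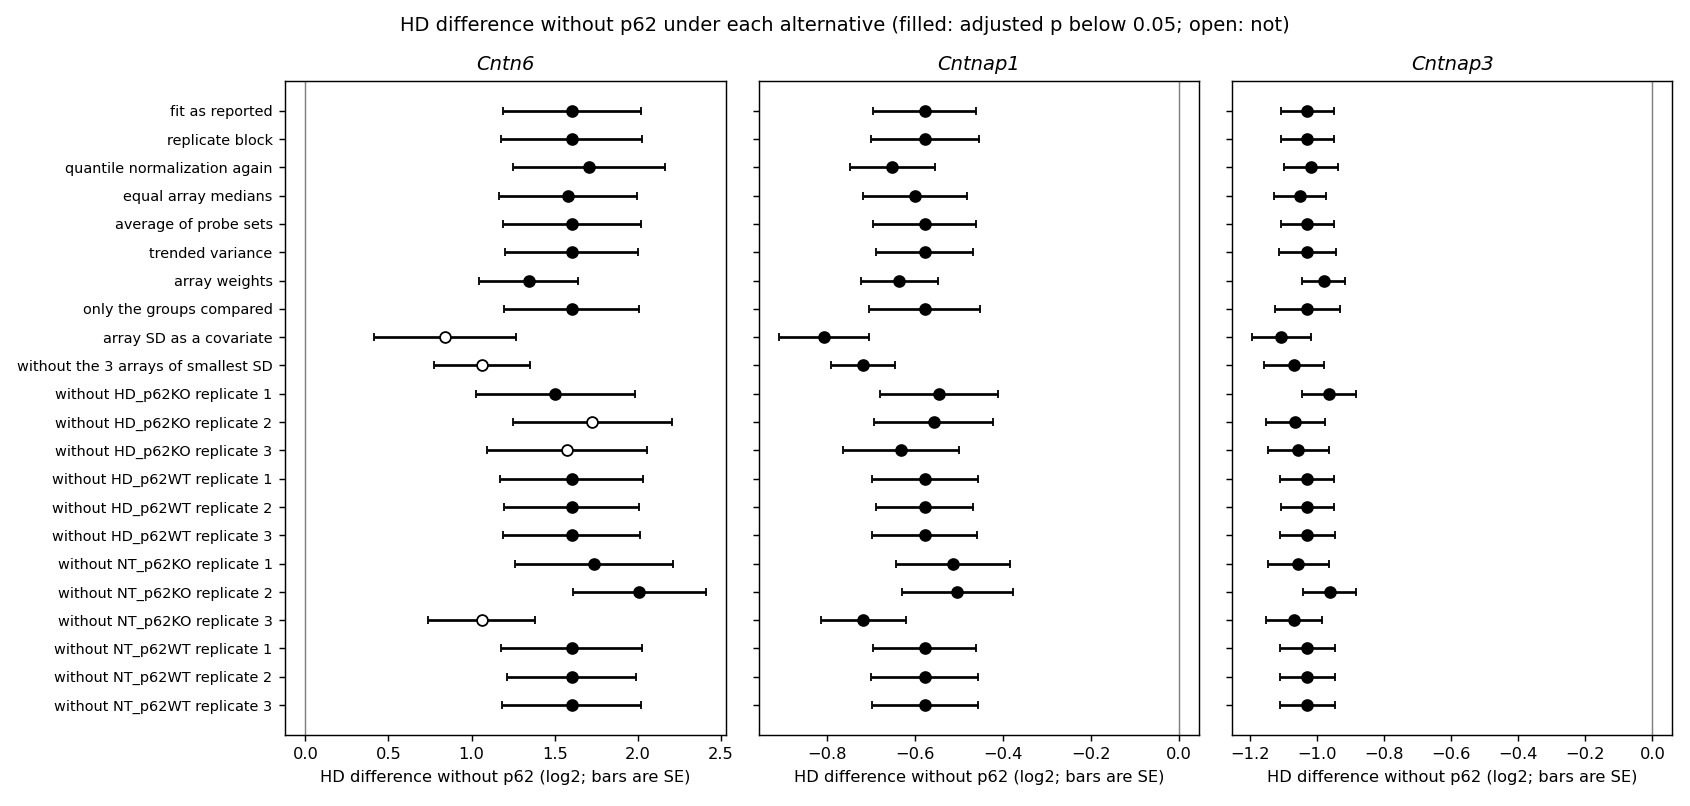
HD difference without p62 (log2, horizontal axes, bars are SE) of Cntn6, Cntnap1 and Cntnap3 in the fit as reported and under each alternative, with filled points where the adjusted p is below 0.05. Cntn6 ranges from 0.84 to 2.01 with 5 open points of 21 alternatives, whereas Cntnap1 (-0.81 to -0.50) and Cntnap3 (-1.11 to -0.96) have none.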

How the data were processed

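Groups and replicate numbers come from the sample titles, which call the samples biological replicates, and each was taken as 1 mouse. The authors deposited 1 log2 value for each probe set and array, and their processing notes name RMA without its settings. RMA as usually run brings the probe intensities of arrays to a common distribution, which would hide a change common to most genes. The gene values used here still differed in array spread, from 1.58 to 1.73.

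Of 24055 probe sets, 19942 had 1 symbol in the platform table. The brightest probe set per gene was kept, leaving 19248 genes. limma 3.58.1 (R 4.3.3) fitted a mean per group to all 12 arrays across all genes (8 residual degrees of freedom), with Benjamini-Hochberg adjustment within a contrast and a threshold of 0.05. The fit was tested on simulated data with independent noise for each gene, which cannot show how array spread affects the calls. Nothing states that these mice came from separate litters, and p-values reflect only how far these samples spread.

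The members and gene lists were chosen with earlier results of these data known. Named were all members, Sqstm1, per list up to 4 genes past the threshold and the brightest that did not pass, 3 measured genes on either side of Cntn6, and the 5 most and 3 least correlated with it. Kcna1, Kcna2, Kcna4, Nfasc and Ptprg were named after their values were seen. Gene order and promoter windows are those of GRCm38.p6, and 8 of 10 members had a window. Alternatives are in the closing section.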

Additional observations from a re-analysis of the deposited data

How the results depend on the processing

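Cntnap3 and Cntnap1 passed for the HD effect without p62 under all 22 alternatives, Cntn5 under 21, Cntnap2 under 18, Cntn1 under 7, Cntn3 under 1 and Cntn6 under 16 of 21, the filter on dim genes having removed it. Members passing numbered 2 with array spread as a covariate and 3 without the 3 arrays of smallest spread, and 3 to 6 when 1 mouse was left out. With p62 the count over left-out mice was 1 to 5. In these fits 2.07% to 10.6% of all genes passed with p62 and 6.61% to 26.6% without it. Over all genes, those passing ran from 843 to 6663 without p62 and from 398 to 4625 with it, and the share higher among those passing without p62 was 61.5% as reported and 36.9% with the covariate. The cause was not tested.

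The replicate numbers did not pair the mice (correlations of deviations from -0.337 to 0.206, with 4 of 18 pairs over 0.1). With the replicate number as a block, 5 members passed without p62, Cntn1 being lost (limma, adjusted p = 0.0796). Of all genes 15.9% passed there, in place of 21.7%. With p62, 4 members were past the threshold, as in the fit reported, and 709 in place of 1366 genes (3.68% in place of 7.1%). The fit of only the groups compared was not run for the difference of HD effects.

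Differences that changed sign were small and none passed. After a second quantile normalization they were -0.0062 (Cntn2) and -0.006 (Cntnap4) for HD without p62, 0.0109 for p62 in non-transgenic mice (Cntn2) and -0.0082 between the HD effects (Cntn5). Array weights gave 0.0025 (Cntn1) and 0.039 (Cntnap1) for p62 in non-transgenic mice. The covariate gave -0.1065 for HD without p62 (Cntnap4) and 0.0072 for p62 in non-transgenic mice (Cntnap1). Leaving out the 3 arrays gave 0.15 for the latter and -0.014 between the HD effects (Cntn5). With p62, where values are a description, the HD difference of Cntn4 was -0.0659 with the covariate, and that of Cntnap2 ran from -0.004 to 0.121 with 1 mouse left out. With 1 mouse left out, HD without p62 ran from -0.199 to 0.0713 (Cntn4) and -0.0456 to 0.1683 (Cntnap4). The p62 effect in non-transgenic mice ran from -0.0815 to 0.0182 (Cntn2), -0.0383 to 0.232 (Cntn4), -0.0209 to 0.1075 (Cntn5) and -0.1222 to 0.0916 (Cntnap1). In HD mice it ran from -0.1269 to 0.0174 (Cntn4) and -0.0076 to 0.0957 (Cntnap2). Between the HD effects the range was -0.2646 to 0.0057 (Cntn4), -0.0475 to 0.0809 (Cntn5) and -0.1955 to 0.0182 (Cntnap1). For Cntn6, where it is a description, this range was -0.7817 to 0.1662. Leaving out the 3 arrays of smallest spread gave -0.9003 for Cntn6.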

Other observations

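Other adhesion molecules of the immunoglobulin type showed calls in both directions. Of 30 measured, 1 rose and 4 fell with the HD transgene without p62, where 13.3% of all genes rose and 8.34% fell. Neo1, the netrin receptor neogenin, rose by 0.32 ± 0.077 (SE, n = 3 per group; limma, adjusted p = 0.0163). Igsf21, a synaptic adhesion molecule, fell by 0.71 (SE 0.18; adjusted p = 0.0175), Opcml by 0.47 (SE 0.12; adjusted p = 0.0181) and Igsf9b, known from inhibitory synapses, by 0.33 (SE 0.088; adjusted p = 0.0215). With p62, the difference of Igsf21 was -0.72 ± 0.18 (SE) and that of Mdga1 -0.45 ± 0.082. Thy1, the brightest that did not pass, differed by 0.11 ± 0.071 without p62 (adjusted p = 0.269).

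Among 23 measured neurexins, neuroligins and synaptic leucine-rich adhesion molecules, 3 rose and 0 fell without p62, a share of risers near the 13.3% of all genes. Lrrn3, a neuronal leucine-rich repeat protein, rose by 0.83 ± 0.085 (SE; limma, adjusted p = 0.000244) and differed by 0.68 ± 0.085 with p62. Lrrtm4, a synaptic organizer, rose by 0.32 ± 0.075 (adjusted p = 0.0136) and Adgrl2, a latrophilin, by 0.25 ± 0.067 (adjusted p = 0.0227). With p62, the difference of Lrrtm4 was 0.31 ± 0.075 (SE) and that of Lrrtm1, another member of this list, -0.44 ± 0.098. Nrxn3 differed by -0.018 ± 0.063 without p62 (adjusted p = 0.847). The Cntnap5 genes, relatives outside the family list, did not pass in any of the comparisons, and Cntnap5a differed by 0.18 ± 0.10 without p62 (adjusted p = 0.196).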
